A study of Mus musculus with 8 samples.

Results

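The CCN family and further target genes of YAP and TAZ were examined in whole esophagi of mice, in 10 genes chosen by symbol from the 32849 gene symbols of the count table. The genes are Ccn1, Ccn2, Ccn3, Ccn4, Ccn5, Thbs1, Ankrd1, Amotl2, Lats2 and Ajuba. They were put together with the comparison of MGL KO and WT esophagi already known. Ccn1 and Ccn2 stand in the study's own list of differing genes, made with edgeR's exact test, and the study also measured Ccn1 by quantitative PCR. The differences of the members between the genotypes are therefore given here as a description. All 10 members passed the filter on low counts, which left 14864 genes. MGL stands for monoacylglycerol lipase, which breaks down the endocannabinoid 2-arachidonoylglycerol, and the study asked how its absence alters the transcriptome of the healthy esophagus. There were 4 libraries of frozen esophagi from MGL KO mice, a global knockout, and 4 from WT mice, with no treatment in either group. The WT mice were littermates from the same colony. The labels give neither age nor sex, and the 4 Y-linked genes examined were above 1 normalized CPM in every library.

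CCN proteins are secreted into the extracellular matrix, where they bind integrins and heparan sulfate proteoglycans and bring matrix signals to cells. Ccn1 and Ccn2 are classical targets of YAP and TAZ, the coactivators that the Hippo kinases hold in the cytoplasm and that bind TEAD factors on DNA once released, for instance in stretched or spreading cells. Both are also induced within minutes to hours by serum, by SRF with its MRTF cofactors, and by TGF-beta. In the esophagus, they are made by mesenchymal, vascular, muscle and epithelial cells, so that whole tissue reads a mixture.

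The TEAD hexamer GGAATG was searched on both strands in the 250 bases before the annotated RefSeq start of the members, because TEAD is the factor through which YAP and TAZ reach these genes. RefSeq promoters of GRCm38.p6 were at hand for 5 of the 10 members, namely Ccn1, Ankrd1, Amotl2, Lats2 and Ajuba, with 6 starts between them. The hexamer or its complement CATTCC occurred in 4 of these 5 genes and in 12.6% of the 32851 promoters of the table, and Lats2 had it at neither of its starts. Ccn1 and Ajuba are shown because both hold the letters and differ in the direction of their fold change, as given further on. Capitals mark CATTCC and, in Ccn1, the TATA letters TATAAA, which 7.59% of promoters hold on the strand of the gene. Each run matched GRCm39 once, the first at chr3:145355741-145355990 and the second at chr14:54815119-54815368, both on the reverse strand and outside annotated exons of their gene.
Ccn1: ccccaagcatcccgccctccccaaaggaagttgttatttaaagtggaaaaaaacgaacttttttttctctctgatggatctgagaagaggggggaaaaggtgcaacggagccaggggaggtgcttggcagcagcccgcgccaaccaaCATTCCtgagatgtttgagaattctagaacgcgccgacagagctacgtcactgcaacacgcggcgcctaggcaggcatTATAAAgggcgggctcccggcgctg
Ajuba: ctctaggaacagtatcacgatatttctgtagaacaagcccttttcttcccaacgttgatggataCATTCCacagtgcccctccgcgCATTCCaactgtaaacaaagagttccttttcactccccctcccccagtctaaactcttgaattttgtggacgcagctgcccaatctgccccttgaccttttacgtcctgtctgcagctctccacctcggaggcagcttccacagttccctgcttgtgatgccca
In Ccn1, CATTCC began 103 bases before the start and TATAAA 25 bases before it. Ajuba carried CATTCC at 186 and 164 bases before the start, Amotl2 carried it at 65 bases, and Ankrd1 held GGAATG at 210 and 123 bases. None of the 5 genes held the letters TGANTCA of AP-1, TGACGTCA of CREB or a CArG box of SRF in this window, motifs that 6.75%, 1.55% and 1.47% of promoters hold. The Ankrd1 window lay wholly within an annotated GENCODE exon of the gene, and those of Amotl2 and Lats2 lay within the gene, with 136 exonic bases in Amotl2 and 186 and 0 in Lats2. These matches describe the letters alone.

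Depth was similar across libraries, with 13479069 to 17090152 counts each, and the counts behind a value of Ccn1 lay between 182 and 733. Values are normalized CPM, that is, counts scaled to library size (CPM) with TMM factors, and log2 fold changes, MGL KO minus WT, come with the standard error (SE) of edgeR's quasi-likelihood fit. Mgll, the targeted gene, lay between 12.6 and 15.97 normalized CPM in the MGL KO libraries and between 66.6 and 88.3 in the WT libraries. MGL KO replicate 4 stood apart, since 8 airway markers summed to 6899 normalized CPM in it and to at most 50.7 in the others. Markers of skeletal muscle, smooth muscle, squamous epithelium, fibroblasts and endothelium were present in all libraries. Nothing in the labels says how the libraries relate to separate mice, so the spread between them may be partly technical.

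For Ccn1, Ccn2, Ccn5 and Thbs1, which are 4 of 10 members, the whole MGL KO group was above the whole WT group, and 2.72% of all genes tested showed this. No member showed the reverse, which 3.30% of genes did. Ccn1 alone among the 10 had an adjusted p under 0.05, against 0.0471% of all genes (0.0202% higher and 0.0269% lower in MGL KO). Of the 10 members, 7 had a higher level in MGL KO, as had 53% of all genes, and 5 had a log2 fold change above 1, as had 2.5%. An unadjusted p under 0.05 was found for 6 members, all higher in MGL KO, and for 8.65% of genes, or 4.35% in that direction. The members were chosen with this contrast known, so nothing is read from these counts. The median log2 fold change was 1.04 over the members and 0.02 over all genes tested.

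Ccn1, also known as Cyr61, encodes a matrix protein that binds integrins and steers cell adhesion and survival. In GRCm39 it occupies bases 145352720 to 145355738 of chromosome 3, on the reverse strand. Ccn1 stood at 10.2, 10.5, 13.2 and 14.5 normalized CPM in WT replicates 1 to 4 and at 44.9, 39.3, 29.3 and 32.1 in MGL KO replicates 1 to 4. The groups did not overlap, with 29.3 as the lowest MGL KO and 14.5 as the highest WT value. Ccn1 averaged 12.1 ± 2.12 normalized CPM (SD, n = 4) over WT and 36.4 ± 7.04 (SD, n = 4) over MGL KO libraries. With a log2 difference of 1.59 (SE 0.18), Ccn1 passed the threshold narrowly, at an adjusted p of 0.0494 in edgeR's quasi-likelihood test. The call was lost in each of the 8 fits without 1 library, in which the log2 fold change lay between 1.48 (without MGL KO replicate 1) and 1.69 (without WT replicate 4).

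Ccn2, or connective tissue growth factor, promotes matrix deposition in fibrosis and works with TGF-beta. In GRCm39 it occupies bases 24471333 to 24474900 of chromosome 10, forward strand. Ccn2 stood at 16.8, 18.0, 24.9 and 29.9 normalized CPM in WT replicates 1 to 4 and at 87.1, 59.3, 54.4 and 60.2 in MGL KO replicates 1 to 4. MGL KO replicate 1 was the highest library for Ccn2 as it was for Ccn1, and WT replicate 4 was the highest of the WT libraries for both. Ccn2 differed by 1.54 (SE 0.22) on the log2 scale, with an adjusted p of 0.0896 in edgeR's quasi-likelihood test, and 1.38 without MGL KO replicate 1. Of 11 alternatives with no library left out, Ccn2 passed 0.05 in 5 and Ccn1 in 7. A long noncoding gene overlaps each of them on the other strand, Gm17501 at Ccn1 and Gm15270 at Ccn2, and the use of strand in counting was not given in the sources used here.

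Ccn5 is the CCN protein without the C-terminal cystine knot domain and is best known for holding back smooth muscle growth. On chromosome 2 of GRCm39 it spans 163662753 to 163675066 on the forward strand. Its level was low, from 14 to 39 counts per WT library and from 66 to 116 per MGL KO library. Ccn5 stood at 1.90, 2.23, 0.92 and 1.96 normalized CPM in WT replicates 1 to 4 and at 4.04, 10.5, 4.99 and 4.95 in MGL KO replicates 1 to 4. The groups did not overlap, and MGL KO replicate 2 was far above the rest. With 1.79 (SE 0.39), Ccn5 had the largest log2 fold change of the 10 members, and its adjusted p was 0.306 in edgeR's quasi-likelihood test. Without MGL KO replicate 2 the log2 fold change was 1.41. Skeletal muscle markers were also highest in this library, with a sum of 64079 normalized CPM against 24462 to 39480 in the other MGL KO libraries and 30220 to 51273 in WT. In WT, the library with the highest sum, replicate 3, had the lowest Ccn5 level. With the mean log2 level of these markers as a covariate, the log2 fold change of Ccn5 was 1.74. The part of muscle RNA in the Ccn5 level of MGL KO replicate 2 was not tested.

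Thbs1 encodes thrombospondin-1, a matrix glycoprotein that checks the growth of vessels and can activate latent TGF-beta. In GRCm39 it occupies bases 117941974 to 117957616 of chromosome 2, also on the forward strand. Thbs1 stood at 24.2, 16.4, 14.7 and 21.1 normalized CPM in WT replicates 1 to 4 and at 33.0, 53.1, 41.7 and 55.9 in MGL KO replicates 1 to 4. The groups did not overlap, with 2.40-fold the WT mean in MGL KO. MGL KO replicate 1, which was the highest for Ccn1 and Ccn2, was the lowest of its group for Thbs1. Its log2 difference was 1.26 (SE 0.21, adjusted p = 0.17 in edgeR's quasi-likelihood test), and 1.15 without the library with airway markers.

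Ccn3 and Ccn4 complete the CCN members. Ccn3, which counters the profibrotic action of Ccn2 in several tissues, stood at 10.8, 10.05, 9.47 and 13.6 normalized CPM in WT and at 10.3, 4.69, 12.9 and 13.2 in MGL KO replicates 1 to 4. The groups overlapped, and MGL KO replicate 2 was the lowest library by far. The log2 fold change was -0.09 with a 95% interval from -0.77 to 0.59, and it turned to 0.15 without that library. Ccn4, a target of Wnt signaling, had 4 to 45 counts per library and a log2 fold change of 0.97 (95% interval from -0.40 to 2.33). Its groups overlapped, between 0.228 and 1.56 normalized CPM in WT and between 0.674 and 2.53 in MGL KO. The fold change of Ccn4 was 0.64 without MGL KO replicate 4 and 1.49 without WT replicate 4. Ccn6, the remaining gene of the family and no member, had between 1 and 8 counts per library and was not tested.

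**Figure D1:**
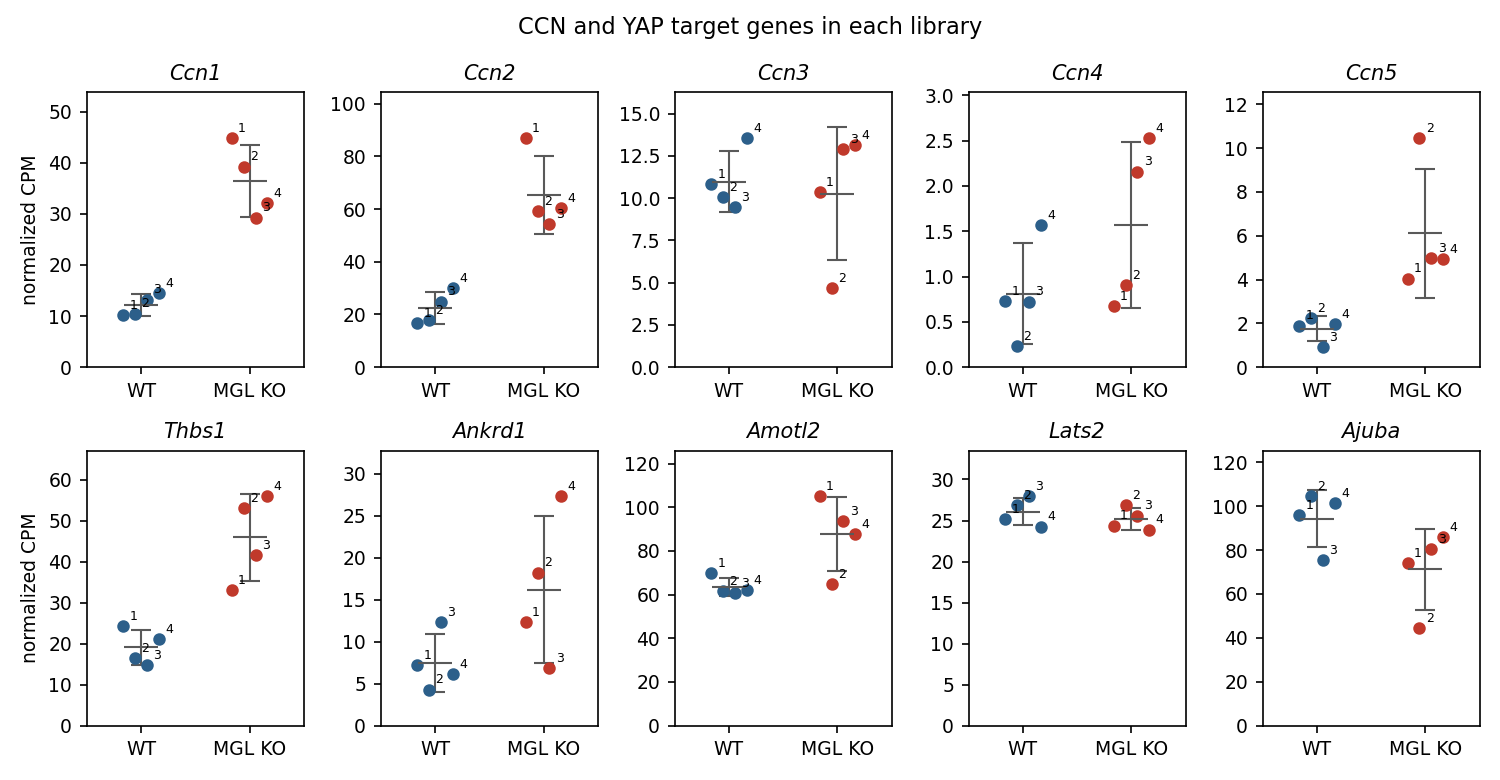
Normalized CPM of the 10 members in each library, with WT in blue and MGL KO in red, the replicate number beside each point, and the mean and SD of 4 libraries as bars. Ccn1, Ccn2, Ccn5 and Thbs1 show no overlap between the groups, whereas Lats2 stays between 23.9 and 27.9 in all libraries.

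Ankrd1 encodes a nuclear cofactor of striated muscle that also binds titin, and it is among the most used readouts of YAP activity. It stood at 7.20, 4.28, 12.3 and 6.13 normalized CPM in WT and at 12.3, 18.2, 6.84 and 27.3 in MGL KO replicates 1 to 4. Both groups spread widely, and MGL KO replicate 3 was below WT replicate 1 and WT replicate 3. For Ankrd1 the log2 fold change of 1.11 (SE 0.45, adjusted p = 0.55 in edgeR's quasi-likelihood test) was 0.73 without MGL KO replicate 4. That library, which also held the airway markers, had the lowest sum of skeletal muscle markers, 24462 normalized CPM. MGL KO replicate 2, second in Ankrd1, had the highest sum, 64079 normalized CPM, and WT replicate 3, the highest WT library for Ankrd1, had the highest of its group, 51273. With the skeletal muscle markers as a covariate, the log2 fold change of Ankrd1 was 1.11, as without it. Beyond that fit, the part of muscle and airway RNA in the Ankrd1 levels was not tested. In bulk tissue, fewer cells of a type and less RNA per cell cannot be told apart.

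Of the members that act within the Hippo pathway, Amotl2, a motin that keeps YAP out of the nucleus and is itself a YAP target, stood at 69.8, 61.5, 60.7 and 62.1 normalized CPM in WT and at 105.0, 65.0, 93.7 and 87.6 in MGL KO replicates 1 to 4. MGL KO replicate 2 was the exception, below WT replicate 1, and the other MGL KO libraries lay above all WT libraries. For Amotl2 the log2 fold change came to 0.47 (SE 0.14, adjusted p = 0.478 in edgeR's quasi-likelihood test).

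Lats2, the kinase that phosphorylates YAP and TAZ and is induced by them in a feedback loop, was the steadiest member. It lay between 24.3 and 27.9 normalized CPM in WT and between 23.9 and 26.9 in MGL KO. The log2 fold change was -0.05 with a 95% interval from -0.27 to 0.17, which leaves out any rise of the size seen for Ccn1. Reads of Lats2 could be shared with Gm49361, a coding gene annotated over the same strand.

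Ajuba, a LIM domain protein that inhibits the LATS kinases, stood at 95.8, 104.4, 75.5 and 101.4 normalized CPM in WT and at 74.1, 44.4, 80.3 and 86.0 in MGL KO replicates 1 to 4. Of the WT libraries, only replicate 3 lay within the range of the MGL KO libraries. Its log2 difference was -0.40 (SE 0.20, adjusted p = 0.624 in edgeR's quasi-likelihood test), the lowest of the members, and -0.23 without MGL KO replicate 2. The 95% interval of Ajuba ran from -0.86 to 0.05 and so covers both signs. Ajuba holds the TEAD letters shown above as Ccn1 does. The signs of their log2 fold changes were opposite under every setting tried, though all settings draw on the same libraries. What the letters do in these genes was not tested.

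**Figure D2:**
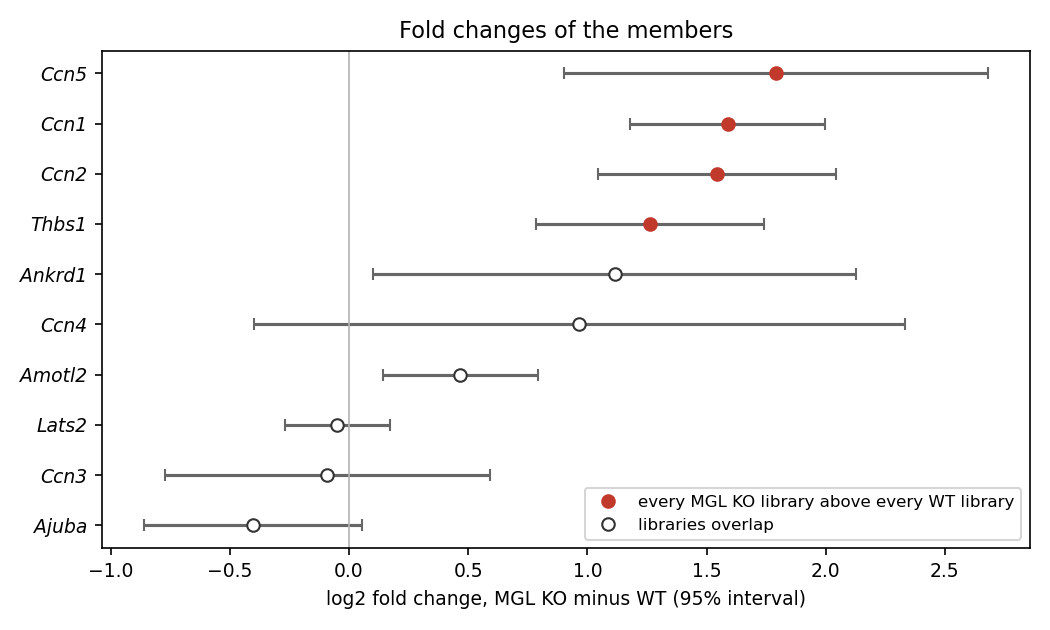
Log2 fold change of each member, MGL KO minus WT, with the 95% interval from edgeR's quasi-likelihood fit. Filled points mark the 4 genes whose libraries do not overlap, from 1.26 for Thbs1 to 1.79 for Ccn5, and open points the others, down to -0.40 for Ajuba.

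Levels can be compared between genes per length, as normalized CPM per kb of exon. In WT esophagi Ajuba had the highest level of the members, at 24.8 ± 3.42 (SD, n = 4) normalized CPM per kb, and its libraries did not overlap with those of the next gene. Amotl2, Ccn2 and Ccn1 followed at 8.999, 7.03 and 5.96 normalized CPM per kb, and each overlapped with the next. Then came Thbs1, Ankrd1, Lats2 and Ccn3 between 2.96 and 1.93, which also overlapped from each to the next. Ccn5 at 0.809 and Ccn4 at 0.133 stood apart at the bottom. In MGL KO esophagi Ccn2 led at 20.5 ± 4.63 (SD, n = 4), before Ajuba at 18.7 ± 4.88, Ccn1 at 17.9 ± 3.47 and Amotl2 at 12.4 ± 2.39 normalized CPM per kb, and each overlapped with the next. Ccn5 had moved from the ninth to the seventh place, with 2.83 normalized CPM per kb, and its range now overlapped with that of Lats2.

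**Figure D3:**
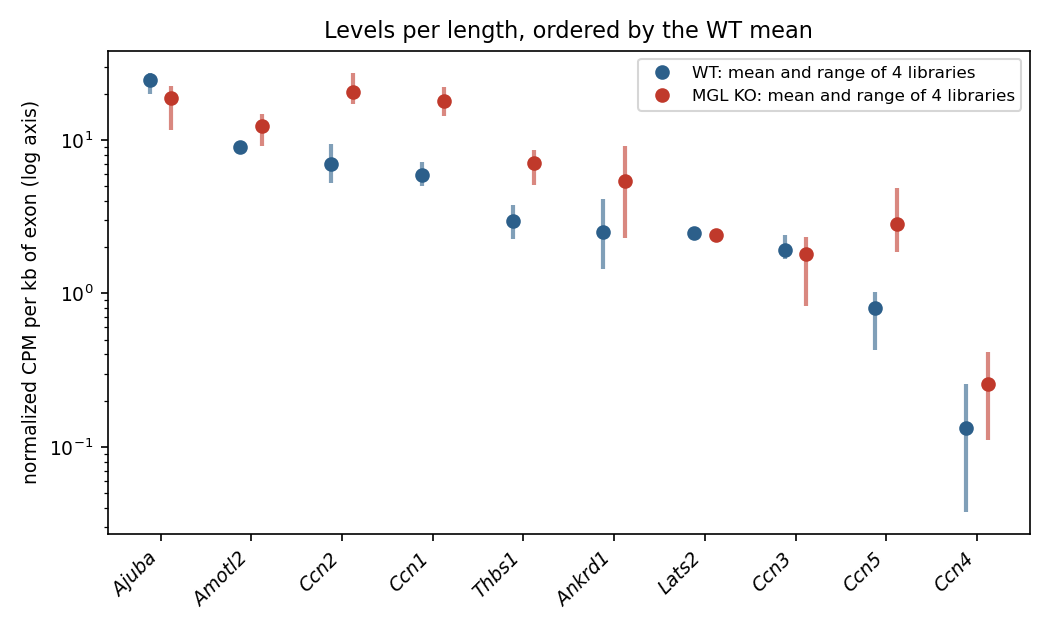
Normalized CPM per kb of exon on a log axis for each member, ordered by the WT mean, with points for the mean and lines for the range of 4 libraries. Ajuba leads in WT at 24.8, and Ccn2, Ajuba and Ccn1 lie together in MGL KO between 17.9 and 20.5.

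The members were chosen on the difference between genotype means, which deviations within a genotype do not hold, although the spread within groups bears on which genes pass a test. Deviations from the mean of the genotype were compared over the 8 libraries for all 45 pairs of members, with exact permutation of libraries within the genotypes, 576 arrangements and p-values adjusted over the pairs. Ccn1 and Ccn2 deviated together (Pearson's r = 0.91, exact permutation p = 0.00521, adjusted p = 0.234). Spearman's rho was 0.88 (exact permutation p = 0.0104, adjusted p = 0.312), and r was 0.78 without MGL KO replicate 1 and WT replicate 4, the libraries farthest from the median. Ccn3 and Ajuba had r = 0.93 (exact permutation p = 0.0122, adjusted p = 0.273) and rho = 0.86 (exact permutation p = 0.0243, adjusted p = 0.365), and r was 0.68 without MGL KO replicates 2 and 4. Ccn3 and Lats2 deviated in opposite directions, with r = -0.71 (exact permutation p = 0.0208, adjusted p = 0.312) and rho = -0.76 (exact permutation p = 0.0139, adjusted p = 0.312), and r was -0.55 without the same libraries. No pair passed 0.05 after adjustment. The smallest p that these libraries allow is 0.00174, so that over 45 pairs a single pair could not have passed.

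Ccn3 and Ajuba were at their lowest in MGL KO replicate 2 and, within the WT group, in WT replicate 3. These are the libraries of each group with the least squamous epithelial RNA. Markers of differentiated squamous epithelium summed to 2208 normalized CPM in MGL KO replicate 2, against 6696 to 13996 in the rest of the group, and to 3115 in WT replicate 3, against 6801 to 15585. Markers of basal squamous epithelium were also lowest there, at 3435 and 3641 normalized CPM. In MGL KO replicate 2 and WT replicate 3, fibroblast (1063 and 1618), endothelial (153 and 196) and adipocyte markers (8.84 and 3.35) were also the lowest of each group. Skeletal muscle markers were the highest of each group there, at 64079 and 51273 normalized CPM. Whether the levels of Ccn3 and Ajuba follow any of these tissues was not tested.

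**Figure D4:**
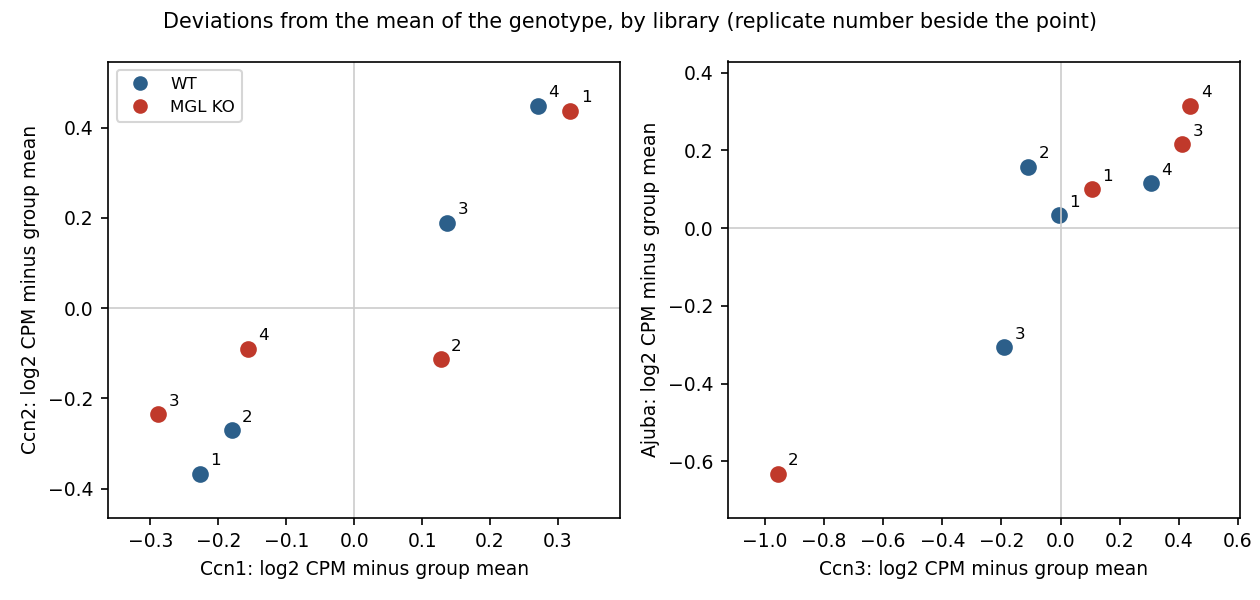
Deviation of each library from the mean of its genotype on the log2 CPM scale, Ccn1 against Ccn2 and Ccn3 against Ajuba, with WT in blue, MGL KO in red and replicate numbers beside the points. Ccn1 and Ccn2 run along a diagonal with r = 0.91, and MGL KO replicate 2 lies far out at the lower left for Ccn3 and Ajuba.

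The other genes of the pathway were read from lists of 106 genes that are no members, of which 103 were tested. Of these, 1 passed 0.05, the immediate early gene Dusp1, and 27 had an unadjusted p under 0.05, 23 with a positive and 4 with a negative log2 fold change. Unadjusted, 8.65% of all genes tested did so. Counts of 0 named in the next paragraphs are from edgeR's quasi-likelihood test, and of its alternatives the exact test on filtered genes, DESeq2 and limma-voom gave 0 as well unless a gene is named.

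Among 17 further genes known as YAP and TAZ targets, 0 passed 0.05 and 1 had an unadjusted p under 0.05. Of these, 6 had a positive and 11 a negative log2 fold change, and the median was -0.08, against 0.02 for all genes tested. F3, tissue factor, had the largest, at 1.04 (SE 0.45), and 0.42 without MGL KO replicate 4. The airway markers given above were high in the same library, and their part in the F3 value was not tested. Ccdc80, a matrix protein gene, was at -0.69 (SE 0.48), and at -0.042 without WT replicate 1. Nt5e, which makes adenosine outside cells, was at 0.51 (SE 0.42), which became -0.10 without MGL KO replicate 4.

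For YAP, TAZ and their partners, 0 of 9 genes tested passed 0.05 and 3 had an unadjusted p under 0.05, all with positive log2 fold changes. Yap1 stood at 159.8 normalized CPM in MGL KO and 142.1 in WT, a log2 fold change of 0.17, and is given for its role. Wwtr1, the gene of TAZ, stood at 86.2 ± 12.5 and 66.7 ± 3.88 (SD, n = 4), a log2 fold change of 0.37 (SE 0.12, adjusted p = 0.499 in edgeR's quasi-likelihood test). Tead4 had a log2 fold change of 0.57 (SE 0.18). Vgll2, a TEAD cofactor of skeletal muscle, was at 1.73 (SE 0.58). The value of Vgll2 was 1.06 without MGL KO replicate 2, the library richest in skeletal muscle markers, and 1.61 with these markers as a covariate. Beyond these fits, the part of muscle RNA in the Vgll2 levels was not tested. Of 18 Hippo kinases and upstream regulators, 0 passed 0.05 and 0 had an unadjusted p under 0.05. Their log2 fold changes ran from -0.37 for Wtip, a relative of Ajuba, to 0.40 for Wwc1, and that of Wwc1 was -0.01 without MGL KO replicate 4.

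Receptors for CCN proteins and thrombospondins gave 0 calls among 12 genes, with 3 at an unadjusted p under 0.05, and DESeq2 called 1, Itga5. Itga5, the integrin alpha subunit that pairs with Itgb1 to bind fibronectin, stood at 59.4 ± 5.77 normalized CPM (SD, n = 4) in MGL KO and 41.3 ± 4.98 in WT without overlap, a log2 fold change of 0.52 (SE 0.11). Sdc4, a heparan sulfate proteoglycan of focal adhesions, was likewise without overlap, at 110.1 ± 14.6 and 79.6 ± 14.0 normalized CPM. Itgam, the alpha chain of a leukocyte integrin, had the lowest log2 fold change, -0.88 (SE 0.31). The summed leukocyte markers reached 202.2 normalized CPM in WT replicate 1, against 28.9 to 69.0 in the other libraries, and without that library the value of Itgam was -0.55. Their part in the Itgam value was not tested.

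Of the 4 other CCN and thrombospondin genes tested, 0 passed 0.05 and 1, Thbs2, had an unadjusted p under 0.05. Thbs2, a matricellular relative of Thbs1, stood at 18.7 ± 4.15 normalized CPM (SD, n = 4) in MGL KO and 30.3 ± 5.28 in WT, with every MGL KO library below every WT library, opposite to Thbs1. Fibroblast markers summed to 1063 to 2184 normalized CPM in MGL KO and 1618 to 2228 in WT, with 3 MGL KO libraries below the lowest WT library, and their part in the Thbs2 value was not tested. For Thbs2 the log2 fold change was -0.70 (SE 0.19, adjusted p = 0.478 in edgeR's quasi-likelihood test). Thbs3 and Thbs4 both had log2 fold changes of 0.07, which turned to -0.08 and -0.15 without MGL KO replicate 3.

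Genes of the other routes to Ccn1 and Ccn2 gave unequal values. Of 14 genes of the SRF and MRTF axis, 0 passed 0.05 and 4 had an unadjusted p under 0.05. Srf and Mrtfb were singled out after their values were seen. Srf had a log2 fold change of 0.27, Filip1l of 0.39 (SE 0.12) and Tpm4 of 0.30 (SE 0.13), while the cofactors Mrtfa and Mrtfb had values of -0.44 and -0.21. The groups did not overlap for Srf and Filip1l, with MGL KO above WT, nor for Mrtfa and Mrtfb, with MGL KO below WT. The median over this list was 0.07. Among 10 TGF-beta responsive genes, 0 passed 0.05 and 4 had an unadjusted p under 0.05. Pmepa1, a feedback inhibitor of TGF-beta signaling, came nearest with 63.2 ± 12.7 normalized CPM (SD, n = 4) in MGL KO and 31.8 ± 0.76 in WT, a log2 fold change of 0.99 (SE 0.14, adjusted p = 0.0681 in edgeR's quasi-likelihood test), and the exact test, DESeq2 and limma-voom called it. Ltbp2, a binding protein of latent TGF-beta, was at 0.78 (SE 0.67), which became -0.32 without MGL KO replicate 4.

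Immediate early genes, which cells switch on without new protein synthesis, had a median log2 fold change of 0.53 over 19 genes tested, 17 of them with positive values and 11 with an unadjusted p under 0.05. Fos stood at 120.4 normalized CPM in MGL KO replicate 1, 19.0 to 45.7 in the other MGL KO libraries and 5.30 to 10.2 in WT. Dusp1, a phosphatase that ends MAP kinase signaling, rose from 56.9 ± 6.42 to 198.2 ± 63.8 normalized CPM (SD, n = 4) with an adjusted p of 0.0494 in edgeR's quasi-likelihood test, and DESeq2 called 6 of the 19 genes, as against 138 of all 14864. The call of Dusp1 was kept in 1 of the 8 fits without 1 library, that without MGL KO replicate 1, and in 8 of the 11 other alternatives. The mean log2 CPM of the 19 genes was 5.65 in MGL KO replicate 1, 4.82 to 5.09 in the other MGL KO libraries and 4.31 to 4.48 in WT, so that the library highest in Ccn1 and Ccn2 was also highest in these genes. Within MGL KO, the order from the highest mean down was replicates 1, 4, 2 and 3, as for Ccn2, while Ccn1 was higher in replicate 2 than in replicate 4. Among WT libraries, replicate 4 was highest in Ccn1 and Ccn2 and replicate 2 in these genes. Their means in those WT libraries lay close together, 4.45 in replicate 4 and 4.48 in replicate 2. The part of the immediate early genes in the Ccn1 and Ccn2 levels was not tested.

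**Figure D5:**
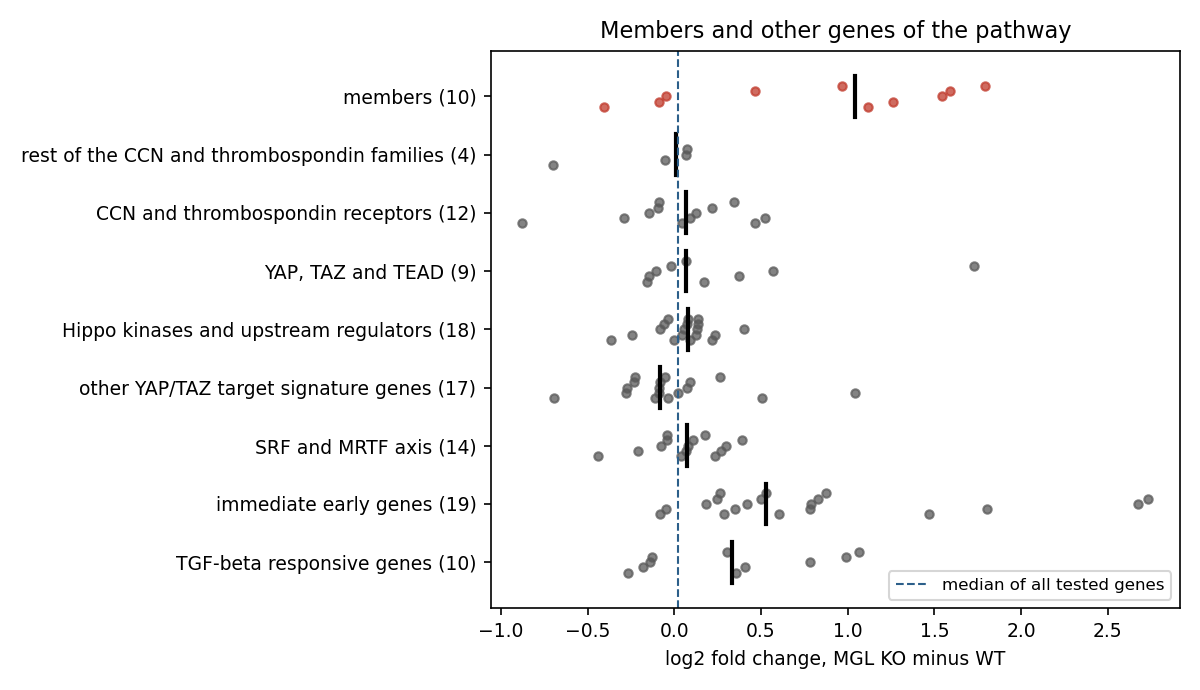
Log2 fold change, MGL KO minus WT, of each tested gene of the members and of the 8 other lists, with the number of genes in brackets, black bars at the list median and a dashed line at the median of all genes tested. The medians are 1.04 for the members, 0.53 for immediate early genes and -0.08 for the other YAP and TAZ targets.

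The genes most like Ccn1 over the 8 libraries were sought among all genes tested, by the root mean square difference between log2 CPM profiles centred on their own mean. These profiles hold the difference between the genotypes, so that genes with similar fold changes come out as near and Ajuba, of opposite sign, as far, and the distances are a description. Ccn2 was at 0.13 from Ccn1. Of genes that are no members, Dusp1 was nearest at 0.19, followed by Npr3, the clearance receptor of natriuretic peptides, and Slc25a25, a mitochondrial carrier of ATP, both at 0.26, then Gadd45g at 0.34 and Atf3 at 0.36. For Ccn2 the order was Dusp1 at 0.24, Slc25a25 at 0.29, Npr3 at 0.31, Sbk3 at 0.36 and Gadd45g at 0.37. Thbs1 was at 0.46 and Ccn5 at 0.58 from Ccn1, farther than these genes, and Ajuba was farthest of the members at 1.10.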

How the data were processed

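Poly(A) RNA of frozen whole esophagi was sequenced on a NovaSeq, and the authors deposited a table of raw counts per gene symbol. Their notes name FastQC 0.11.9, Cutadapt, STAR 2.7.10b and GRCm39. The counting tool, annotation and strand setting were not given in the sources used here, so reads of overlapping genes may be shared. All 8 columns matched a sample title.

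From these counts, 14864 genes passed edgeR's filterByExpr (minimum count 10). TMM factors and edgeR's quasi-likelihood test (edgeR 4.0.16, R 4.3.3) compared 4 MGL KO with 4 WT libraries, with Benjamini-Hochberg adjustment over all genes and 0.05 as threshold. edgeR's exact test, which the study used, DESeq2 1.42.0, limma-voom (limma 3.58.1), other scalings, no filter, covariates, the replicate block and leaving out each library served as alternatives. Scripts were tested on simulated counts. Log2 profiles used a prior count of 1 and deviations log2(CPM + 0.5). Exon lengths and positions came from GENCODE M39, promoters from RefSeq. Totals were 13479069 to 17090152 counts per library, and 3 counts, the most that a count of 0 allows, equal 0.167 to 0.271 normalized CPM, for counting error only. Replicate libraries differed beyond sampling noise (chi-square per degree of freedom of at least 14.5).

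The members and gene lists were chosen with earlier results of these data known. Named genes are all members, Mgll, Fos, Dusp1, in each list the genes called and the 3 with the largest log2 fold change in size, and the 5 nearest in profile to Ccn1 and to Ccn2. Other genes were named for their role or after their values were seen. A gene that this rule also names is not reported here.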

Additional observations from a re-analysis of the deposited data

Results flagged for a closer look

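Of 54 groups of 4 values compared, 8 held a library far from the other 3 by Dixon's criterion, and chance alone gives about 2.7. Among the members, Ccn5 stood at 10.5 normalized CPM in MGL KO replicate 2 and at no more than 4.99 in the other MGL KO libraries. Amotl2 stood at 69.8 normalized CPM in WT replicate 1, where the next WT library had 62.1. Fos, an immediate early gene, was low in the same WT library, at 5.30 normalized CPM, with 9.52 as the next value.

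The other values of this kind were sums over cell type markers. In MGL KO replicate 4, airway markers summed to 6899 normalized CPM (next 50.7), cartilage markers to 74.98 (next 2.10, nearly all from Chad) and leukocyte markers to 69.0 (next 36.9). Basal squamous markers were low in WT replicate 3, at 3641 normalized CPM, and thyroid markers reached 4.80 in WT replicate 1 (next 0.913).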

How the results depend on the processing

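Of the 10 members, 9 kept the direction of their log2 fold change in all 19 alternatives, and Ccn3 turned to 0.010 in limma-voom, 0.15 without MGL KO replicate 2 and 0.026 without WT replicate 4, with -0.23 as its lowest value without 1 library. The members without overlap numbered 4 with RLE factors or library size alone and 4 to 5 without 1 library, settings added after seeing the data. Calls moved more, and the cause was not tested. Against 7 genes, 1 member and 1 listed gene, edgeR's exact test gave 64, 4 and 5 on filtered genes and 42, 3 and 4 on all genes with a count, DESeq2 138, 4 and 8, limma-voom 25, 2 and 3, and the skeletal muscle covariate 30, 2 and 3. The robust fit and the fit with no filter each gave 2, 0 and 0, and the Y-linked covariate 3 genes and 0 members. Library size alone called 2 listed genes, and 83.3% of the genes it called had positive fold changes (42.9% with TMM). Without 1 library, 2 to 5 genes, 0 members and 0 to 1 listed genes were called, with 5 to 7 members at an unadjusted p under 0.05. That count was 6 in the robust and unfiltered fits and 5 with the Y-linked covariate.

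The replicate block gave 2 genes, 0 members (5 at an unadjusted p under 0.05) and 0 listed genes. Same-numbered libraries did not deviate together (r = -0.14, -0.28, -0.14 and 0.08 over 14864 genes). This check cannot tell whether they share more than a number, because differences in tissue between libraries also enter the deviations. Without 1 library, Thbs3 ranged from -0.082 (without MGL KO replicate 3) to 0.28, and Thbs4 from -0.15 (without MGL KO replicate 3) to 0.20, and -0.054 when WT replicate 1 was left out. Wwc1 turned to -0.014 (highest value 0.66), Nt5e to -0.10 (highest 0.75) and Ltbp2 to -0.32 (highest 1.23) without MGL KO replicate 4. Of the members, Ccn4 had the fewest counts, 4 to 45 per library, and so the widest relative counting error.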
